A study of Mus musculus with 3 samples.

Results

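The 37 genes described here encode ligands, receptors, intracellular Smad proteins and secreted antagonists of the TGFβ and BMP pathways. They were chosen by name, among 22367 protein-coding genes annotated on chromosomes 1 to 19, X and Y. The rule uses no measured value, although earlier results of these data were known when the list was drawn up. Measured were ERα binding sites, as 2 peak lists from replicate ChIP-seq of the mammary glands of WT female mice of the strain BALB/c in the labels and BALB/cJ in the study's methods, each replicate a pool of the #4 glands of 6 mice. In ChIP-seq, an antibody pulls down chromatin that carries the protein, here estrogen receptor α, and its DNA is sequenced, whereas input chromatin skips the antibody. All animals were ovariectomized at 6 weeks of age, which removes the main source of estrogen, rested for 10 days and then received 100 ng of 17β-estradiol 2 h before the glands were taken. The samples hold 1 input library and no ERα ChIP library from vehicle-treated mice, so these lists do not measure an effect of estradiol on binding. Whole glands contain epithelium, fat and stroma, and the lists do not show in which cells ERα was bound.

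Ligands of the TGFβ superfamily are secreted as dimers and bring together type I and type II serine/threonine kinase receptors. The activated type I receptor phosphorylates receptor Smads, which join Smad4 and enter the nucleus, where they regulate transcription. TGFβs and activins act mainly through Smad2 and Smad3, and BMPs through Smad1, Smad5 and Smad9, while Smad6 and Smad7 inhibit signalling and secreted antagonists hold ligands outside the cell. In the mammary gland, TGFβ is known for restraining ductal growth.

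For each gene, peaks were counted whose midpoint lay within 100 kb of any annotated transcription start site (TSS) of the gene in NCBIM37, the assembly of mm9. Peaks of the replicates that overlapped by at least 1 bp gave a shared region, the interval covered by both. Each peak carries a score, which is -log10(p) multiplied by 10, so a score of 80 corresponds to the calling threshold of 1e-08. The lists hold 9607 and 6819 peaks and gave 6250 shared regions, of which 6243 lie on chromosomes 1 to 19 and X. They hold no read counts, so depth could not be read from them. Scores depend on both enrichment and depth, so they are given side by side or as ranks within a list.

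Of the 37 genes, 21 (56.8%) had at least 1 shared region within 100 kb of a TSS, against 38.1% of all protein-coding genes. Peaks of replicate 1 lay near 25 genes (67.6%), where the share of all protein-coding genes was 49.6%. Peaks of replicate 2 also lay near 25 genes (67.6%), against 40.3%. The pathway genes thus lay above the share for all protein-coding genes in each list, and this is a description without a test. A count of 3 or more shared regions was found for 7 genes (18.9%), against 8.88% of all protein-coding genes. The median was 1 shared region per gene against 0, and the mean 1.27 against 0.753.

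**Figure D1:**
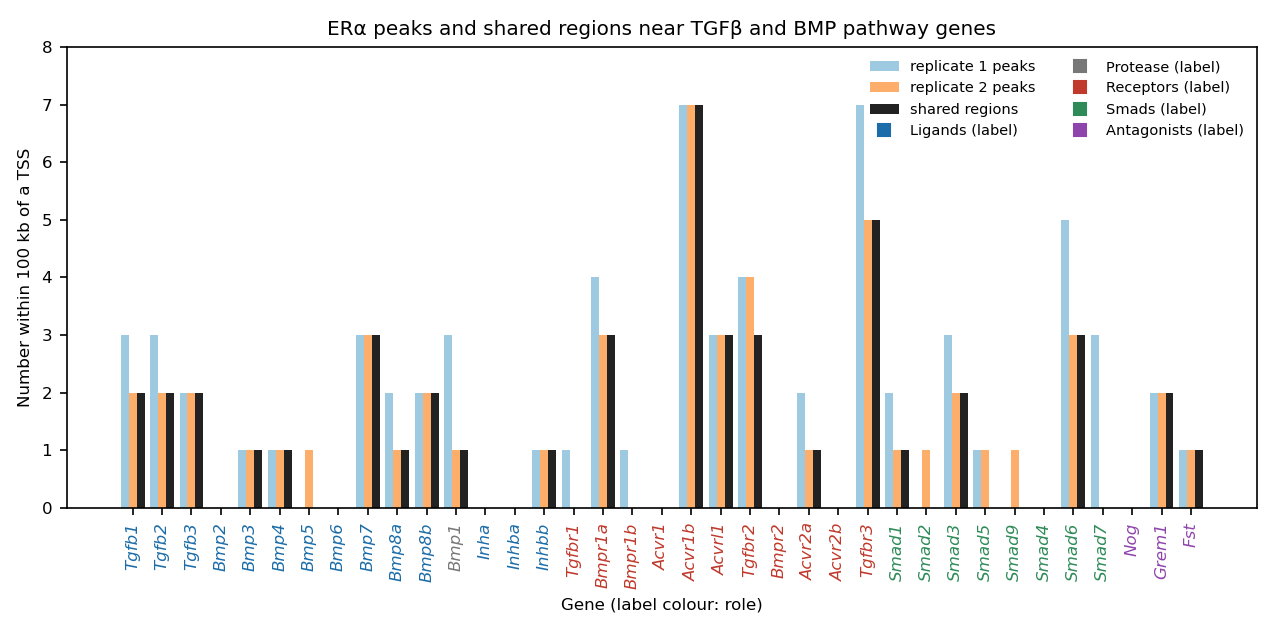
Number of ERα peaks of replicate 1 (light blue), of replicate 2 (orange) and of shared regions (black) within 100 kb of a TSS of each of the 37 genes, with gene labels coloured by role. Acvr1b (7 shared regions) and Tgfbr3 (5) stand highest, and 16 genes have no black bar.

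Genes with TSSs far apart have a longer stretch of sequence within reach, so the counts were also set beside genes with a stretch, or territory, of similar length. For territories of up to 203 kb, 11 of 19 pathway genes (57.9%) had a shared region, against 34% of protein-coding genes. For 203 to 233 kb the count was 5 of 9 (55.6%), against 44.2%, and over 233 kb it was again 5 of 9 (55.6%), against 48.6%. The share of pathway genes was thus the higher one in each class, by the most in the shortest. The longest class depended on where it began, since over 230 kb it was 5 of 11 (45.5%) against 48.4%. Together the territories of the 37 genes spanned 8.24 Mb with 44 distinct shared regions, 5.34 per Mb, against 3.08 per Mb in the territories of all protein-coding genes.

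**Figure D2:**
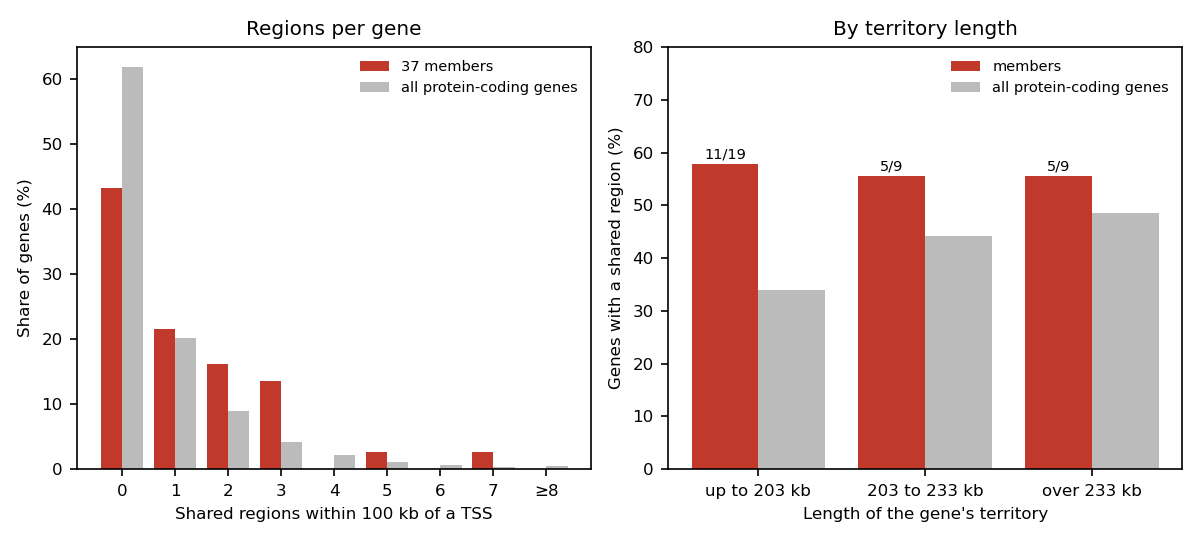
Left, share of genes (percent) with each number of shared regions within 100 kb of a TSS, for the 37 pathway genes (red) and all protein-coding genes (grey). Right, share of genes with at least 1 shared region by territory length, with the counts of pathway genes above the red bars, which exceed the grey bars in all 3 classes, by the least over 233 kb.

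By role, a shared region lay near 9 of 14 ligand genes (64.3%), 5 of 10 signalling receptors (50%), the coreceptor Tgfbr3, 3 of 8 Smads (37.5%), 2 of 3 secreted antagonists and the protease Bmp1. The share of all protein-coding genes was 38.1%, close to that of the Smads, and each role holds few genes. Within 100 kb is a wide criterion. For 13 of the 37 genes (35.1%), a TSS of the gene was also the nearest one of any annotated gene to a shared region, against 11.8% of protein-coding genes. Of the 44 regions, 17 (38.6%) were nearest to a pathway gene, and other genes lay closer to the remaining 27.

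The 3 TGFβ ligand genes, which encode the cytokines that give the pathway its name, each had 2 shared regions. Tgfb1 (ENSMUSG00000002603, chromosome 7, 26472021 to 26490096) had both of its regions upstream, inside introns of the neighbouring gene Bckdha, and another gene was closer to each. The region at -53967 bp from the TSS scored 644 in replicate 1 and 429 in replicate 2. It held an estrogen response element (ERE), the half-sites GGTCA and TGACC separated by 3 bases, without mismatch. The region at -42412 bp scored 126 and 100.31, close to the threshold in both lists. A replicate 1 peak downstream of Tgfb1, in an intron of Hnrnpul1, scored 152 and had no partner in replicate 2.

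Tgfb2 (ENSMUSG00000039239, chromosome 1, 188447065 to 188529871, minus strand) was the nearest gene to both of its intergenic regions. The upstream one, at -6818 bp, scored 314 in replicate 1 and 152 in replicate 2. The other, 50184 bp downstream of a TSS and past the 3′ end of the gene, scored 795 and 635. Both held an ERE with 1 mismatch, and the downstream region ranked 782 of 9607 and 708 of 6819. Tgfb3 (ENSMUSG00000021253, chromosome 12, 87397694 to 87419991, minus strand) had a region at -30685 bp with scores of 1136 and 857. This region lay in an intron of 1700019E19Rik, whose TSS was closer, and it was among the 5 regions of the 44 with the highest lower score. The downstream region of Tgfb3, at 31011 bp in an intron of Ttll5, was nearest to Tgfb3 and scored 526 and 423. Each of the 3 TGFβ ligand genes had at least 1 region with scores above 400 in both replicates. This limit was not set in advance, and the share of all protein-coding genes that reach it is not given here. At Tgfb1 the region that reached it was closer to another gene.

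The sequences below show the ERE-like sequence of each of the higher-scoring TGFβ ligand regions and of the Inhbb region, on the plus strand of NCBIM37. Capitals mark bases that match the ERE half-sites, and lower-case letters within a half-site are mismatches. They run from the ERE without mismatch at Tgfb1 to the 3 mismatches at the downstream region of Tgfb3.
Tgfb1, chr7:26418066-26418106: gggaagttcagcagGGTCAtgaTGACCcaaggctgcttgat
Tgfb2, chr1:188407906-188407946: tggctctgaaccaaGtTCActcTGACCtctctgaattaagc
Tgfb3 upstream, chr12:87450647-87450687: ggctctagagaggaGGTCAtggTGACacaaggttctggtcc
Tgfb3 downstream, chr12:87388855-87388895: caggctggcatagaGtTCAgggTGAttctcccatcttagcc
Inhbb, chr1:121328433-121328473: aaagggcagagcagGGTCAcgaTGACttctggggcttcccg

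Activins and inhibins are dimers of inhibin subunits. Inhbb (ENSMUSG00000037035, chromosome 1, 121312042 to 121318825, minus strand), which encodes the βB subunit, had 1 intergenic shared region at -9591 bp, and Inhbb was its nearest gene. It scored 1392 in replicate 1 (rank 268) and 728 in replicate 2 (rank 575) and held the ERE with 1 mismatch shown above. Its window also matched the SF1 and PAX2 consensus sequences. A match to GTCACG, the PAX2 consensus, lies inside the printed ERE, across its first half-site and spacer, so it is not a separate element. Neither list had a peak near Inha, for the α subunit, or near Inhba, for the βA subunit.

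Of the 8 BMP ligand genes, Bmp3, Bmp4, Bmp7, Bmp8a and Bmp8b had a shared region (62.5%, against 38.1% of all protein-coding genes). Each of them was the nearest gene to 1 of its regions. Bmp7 (ENSMUSG00000008999, chromosome 2, 172693513 to 172765822, minus strand) had 3 regions of similar score. The 2 upstream regions, at -25078 and -20878 bp, were closer to Spo11 and scored 215 and 216 in replicate 1 and 151 and 175 in replicate 2. The third, 16606 bp downstream in an intron of Bmp7, scored 165 and 221. None of the 3 held an ERE with 1 mismatch or fewer, and none reached a score of 200 in both replicates. Bmp3 had an upstream region at -72118 bp with scores of 194 and 229. Bmp4, a BMP ligand of many developing tissues, had 1 at -7746 bp with scores of 300.4 and 89.6, the largest ratio between replicates among the 44 regions (3.35).

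Bmp8a (ENSMUSG00000032726, chromosome 4, 122989888 to 123020495, minus strand) and its paralogue Bmp8b (ENSMUSG00000002384, chromosome 4, 122782408 to 122809342, plus strand) each had an intronic shared region close to the TSS. The Bmp8a region, at 2305 bp, scored 253 in replicate 1 and 158 in replicate 2. The Bmp8b region, at 1900 bp, scored 295 and 150.38. These were the shortest distances among the 44 regions to a TSS of a pathway gene, and the regions lay at similar positions in both genes. Aligned in the direction of the genes, their 400 bp windows matched over 296 columns with 219 identical bases (74.0%). Each held an ERE-like sequence with 1 mismatch, and these sequences fell opposite each other in the alignment and were identical at 13 of 13 bases. Reads from near-identical stretches of paralogues can be hard to place. The identity of 74.0% is that of all 296 aligned columns and does not show how alike shorter stretches are. How reads that fit both genes were handled is not given in the sources used here, and its effect was not tested. The sequences are printed to show the shared element in the direction of each gene, with capitals as above, and this pair was chosen after its values were seen.
Bmp8a, minus strand, chr4:123017723-123017775: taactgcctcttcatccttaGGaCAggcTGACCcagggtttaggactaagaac
Bmp8b, plus strand, chr4:122784221-122784273: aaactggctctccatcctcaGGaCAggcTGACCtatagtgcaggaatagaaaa

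Bmp8b had a second shared region, intergenic at -33526 bp, with far higher scores of 1444 (rank 255) and 1133 (rank 235). Its nearest TSS was that of Gm12923, 22389 bp away. Its best ERE-like sequence had 2 mismatches, 1 in each half-site, as shown here on the plus strand for comparison with the weaker intronic regions.
Bmp8b upstream, chr4:122748728-122748768: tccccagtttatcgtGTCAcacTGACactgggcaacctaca

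The remaining BMP ligand genes had no shared region. Bmp2 and Bmp6 had no peak in either list, and Bmp5 had 1 replicate 2 peak at 99878 bp with a score of 102, without a partner within 294998 bp. Bmp1, which is named as a BMP but encodes a procollagen protease, had 1 shared region at 61213 bp with scores of 469 and 264. That region lay 1154 bp from a TSS of Piwil2.

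Among the type I receptors, Acvr1b (ENSMUSG00000000532, chromosome 15, 101004556 to 101043032), an activin receptor, had 7 shared regions, the most of the 37 genes. The region nearest to Acvr1b itself lay in its intron, 17199 bp downstream of the TSS, and scored 83.4 in replicate 1 and 103 in replicate 2, near the threshold. The other 6 were intergenic and closer to Ankrd33, Grasp or Nr4a1. Of these, 2 lay upstream, at -86992 bp (scores 246 and 309) and -81738 bp (213 and 101). The 4 downstream regions, between 66939 and 86432 bp, scored 139 to 371 in replicate 1 and 118 to 165 in replicate 2. The number of regions at Acvr1b therefore came mostly from its neighbourhood, and 1 region lay within 50 kb.

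Acvrl1 (ENSMUSG00000000530, chromosome 15, 100958953 to 100975767), the ALK1 receptor of endothelial cells, lies next to Acvr1b. All 3 of its regions were also within 100 kb of the Acvr1b TSS, and none was nearest to Acvrl1. They lay at -41389, -36135 and 53724 bp from an Acvrl1 TSS. Bmpr1a (ENSMUSG00000021796, chromosome 14, 35223920 to 35316527, minus strand), a BMP type I receptor, had 3. The region 39301 bp downstream, in an intron of Bmpr1a, held an ERE without mismatch and yet scored only 122 in replicate 1 and 175 in replicate 2. The upstream regions, at -54054 bp (283 and 158) and -48492 bp (153 and 116), lay in introns of Ldb3, which encodes a muscle protein.

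Tgfbr1, the type I receptor for TGFβ, had no shared region but 1 replicate 1 peak at -59137 bp, in an intron of Col15a1, with a score of 106. For Bmpr1b there was 1 replicate 1 peak in its own intron with a score of 83.4, and for Acvr1 no peak in either list.

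Tgfbr2 (ENSMUSG00000032440, chromosome 9, 115993415 to 116084383, minus strand), the type II receptor for TGFβ, had 3 shared regions, all intergenic and upstream. At -67221 bp a region scored 1229 in replicate 1 (rank 365) and 1020.2 in replicate 2 (rank 303) and held an ERE without mismatch. The region at -92144 bp scored 666 and 615 and held an ERE with 1 mismatch, and that at -62148 bp scored 332 and 136. The nearest TSS to each of them was that of AC131777.1. Closer to the gene, a replicate 1 peak at -2971 bp (score 84.6) and a replicate 2 peak at -7927 bp (score 123) did not overlap, with 4439 bp between them. Of the other type II receptor genes, Acvr2a had 1 shared region at -80027 bp with scores of 87.3 and 86.9, and Bmpr2 and Acvr2b had no peak in either list.

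Tgfbr3 (ENSMUSG00000029287, chromosome 5, 107535589 to 107718648, minus strand) encodes betaglycan, a coreceptor that presents TGFβ to Tgfbr2, and had 5 shared regions. The highest of the 44 regions by lower score was intronic in Tgfbr3 (107648171 to 107649055) and scored 1528 in replicate 1 (rank 229) and 1294 in replicate 2 (rank 187). Its midpoint was at -27227 bp from the nearest of the 4 annotated Tgfbr3 TSSs, and a TSS of Gm8145 was 22029 bp away. Tgfbr3 was the nearest gene to an intronic region at 27401 bp (scores 170 and 202) and to an intergenic one at 45440 bp (572 and 346). Past the 3′ end, regions at 92318 bp (213 and 169) and 96874 bp (1013 and 600.01) were closer to Cdc7. None of the 5 regions held an ERE with 1 mismatch or fewer, including the 2 with the highest scores. The strongest receptor regions are shown with their best ERE-like sequences, on the plus strand and with capitals as above, beside the low-scoring Bmpr1a region for contrast.
Bmpr1a, chr14:35234441-35234481: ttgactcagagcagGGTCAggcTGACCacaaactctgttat
Tgfbr2 at -67221 bp, chr9:116151552-116151592: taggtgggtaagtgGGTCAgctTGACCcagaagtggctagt
Tgfbr2 at -92144 bp, chr9:116176543-116176583: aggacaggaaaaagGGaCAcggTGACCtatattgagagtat
Tgfbr3 at -27227 bp, chr5:107648559-107648599: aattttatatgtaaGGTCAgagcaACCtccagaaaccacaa
Tgfbr3 at 96874 bp, chr5:107464968-107465008: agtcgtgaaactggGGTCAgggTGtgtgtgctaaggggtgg

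Of the 8 Smad genes, 3 had a shared region (37.5%, against 38.1% of all protein-coding genes). Smad6 (ENSMUSG00000036867, chromosome 9, 63800953 to 63869866, minus strand), an inhibitor of BMP signalling, had 3. Of these, 2 lay in its introns, at 20664 bp (scores 116 and 107) and 54048 bp (189 and 113), and each held an ERE with 1 mismatch. The other, at -94990 bp, scored 256 and 178 and lay 98 bp from a TSS of Lctl. Smad3, which transmits TGFβ and activin signals, had 2 intronic regions of its own, at 9004 bp (126 and 121) and 10797 bp from a TSS (225 and 126). Another intronic peak of Smad3, in replicate 1 only, scored 228, the highest score of a peak without a partner near these genes, and the nearest replicate 2 peak was 851 bp away. Smad1, a BMP receptor Smad, had 1 region at 68194 bp with scores of 563 and 388. Its best ERE-like sequence had 3 mismatches. The sequence is printed because the region came next in the order of lower scores, and it was also the highest-scoring Smad region.
Smad1, chr8:81855110-81855150: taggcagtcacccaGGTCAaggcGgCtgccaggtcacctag

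The other Smads differed between the lists or had no peak. At Smad7, an inhibitory Smad, 3 peaks were present in replicate 1 and 0 in replicate 2. They lay at -4067 bp (score 115), at 87 bp over the TSS (98.2) and at 73388 bp (192), and the nearest replicate 2 peak was 115610 bp from the first of them. For Smad5, each list had 1 upstream peak, with scores of 91.3 and 84.2, and the peaks were 5827 bp apart. Smad2 (score 97.5) and Smad9 (score 107) each had 1 peak in replicate 2 alone. Smad4, the common partner of the receptor Smads, had none.

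Of the secreted antagonists, Grem1 (ENSMUSG00000074934, chromosome 2, 113586321 to 113598803, minus strand), which encodes the BMP antagonist gremlin, had 2 shared regions in introns of its neighbours. The one at -63073 bp, in Scg5, scored 190 in replicate 1 and 160 in replicate 2 and held an ERE with 1 mismatch. The one at 68792 bp, in Fmn1, scored 198 and 191. Fst, for the activin-binding protein follistatin, had 1 region at 53361 bp with scores of 102 and 138, closer to Ndufs4. Nog, for the BMP antagonist noggin, had no peak in either list.

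**Figure D3:**
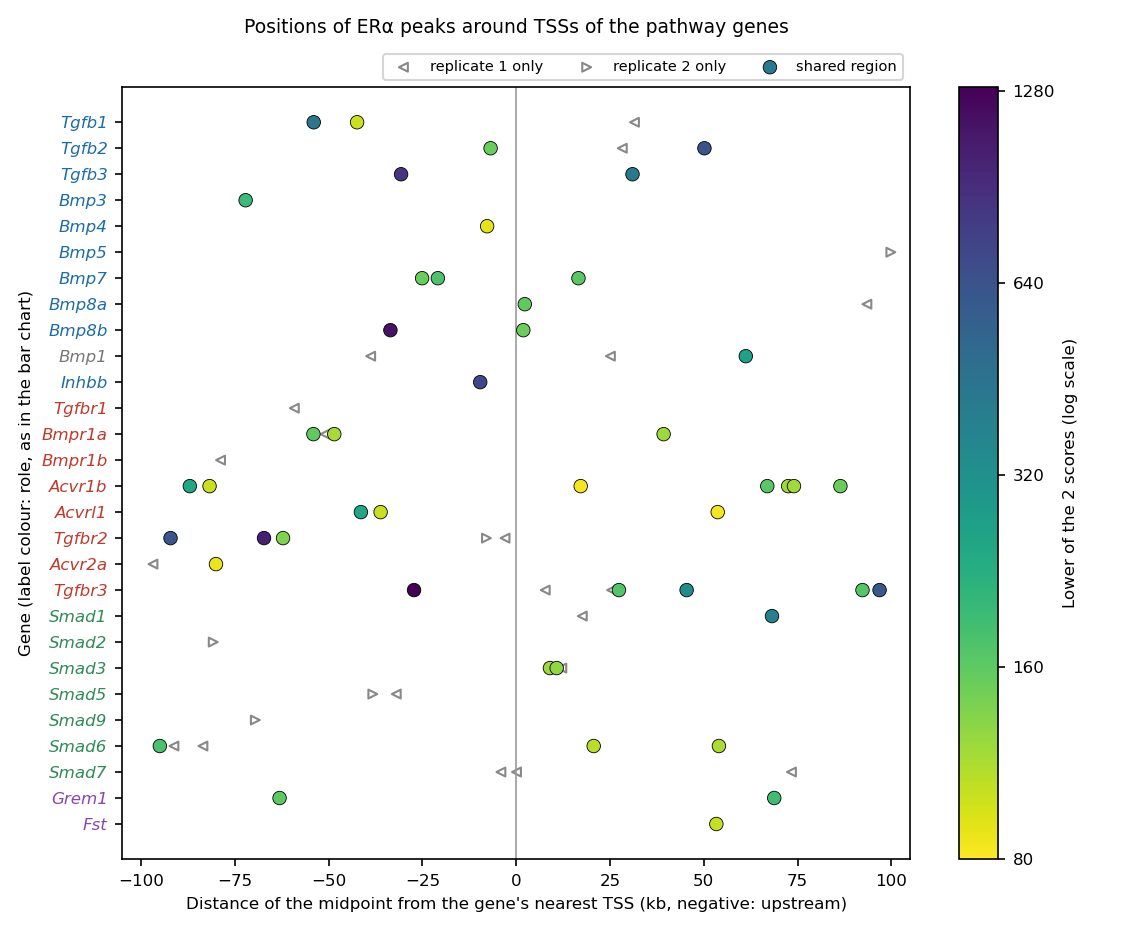
Distance in kb of each peak midpoint from the nearest TSS of the gene, for the 28 genes with a peak in either list. Circles are shared regions coloured by the lower of their scores on a log scale, open triangles are peaks of 1 replicate, and no circle lies over a TSS, the closest being those of Bmp8b at 1900 bp and Bmp8a at 2305 bp.

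Sites from 1 kb before a TSS to 400 bp after it were classed as proximal, and the others within 100 kb as distal upstream or distal downstream. None of the 44 shared regions was proximal to a pathway gene (exact 95% interval 0% to 8.04%), 21 were distal upstream and 23 distal downstream. These classes use TSSs of the pathway genes alone, and the Smad6 region at -94990 bp lay 98 bp from a TSS of Lctl. The same share over all shared regions is not given here. The study, which used the nearest TSS of any RefSeq gene, also found only a small part of its binding sites to be proximal. The median distance to the nearest TSS of a pathway gene was 47.0 kb, and 6 regions (13.6%) lay within 10 kb of such a TSS. When TSSs of every protein-coding gene counted, 30.4% of the 6243 regions were that close. The figure of 13.6% leaves out TSSs of other genes, so these shares are not like for like. They do not show whether the 44 regions were unusually distal. For 20 regions (45.5%) the midpoint was in an intron of a protein-coding gene and for 24 (54.5%) it was intergenic, against 42.8% and 53.3% of all shared regions. None lay in an exon, where 3.89% of all shared regions were. In 8 genes (Bmp7, Bmp8a, Bmp8b, Bmpr1a, Acvr1b, Tgfbr3, Smad3 and Smad6) a shared region lay in the gene's own intron.

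Scores of the 44 regions ran from 83.4 to 1528 in replicate 1 and from 86.9 to 1294 in replicate 2, where the highest scores of the lists were 3181 and 3100. Their median was 249 in replicate 1 and 167 in replicate 2, against 246 and 178 over all shared regions. A lower score of 200 or more was reached by 31.8% of them, against 41.7% of all shared regions. For a lower score of 500 or more the shares were 18.2% and 15.3%, and for 1000 or more 6.82% and 4.89%, so the order of the shares changed with the score. The highest regions were those at Tgfbr3, Bmp8b, Tgfbr2, Tgfb3 and Inhbb. Replicate 1 gave the higher score in 37 of 44 regions (84.1%), against 80.2% of all shared regions. The ratio of the scores had a median of 1.28, against 1.31 over all shared regions.

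**Figure D4:**
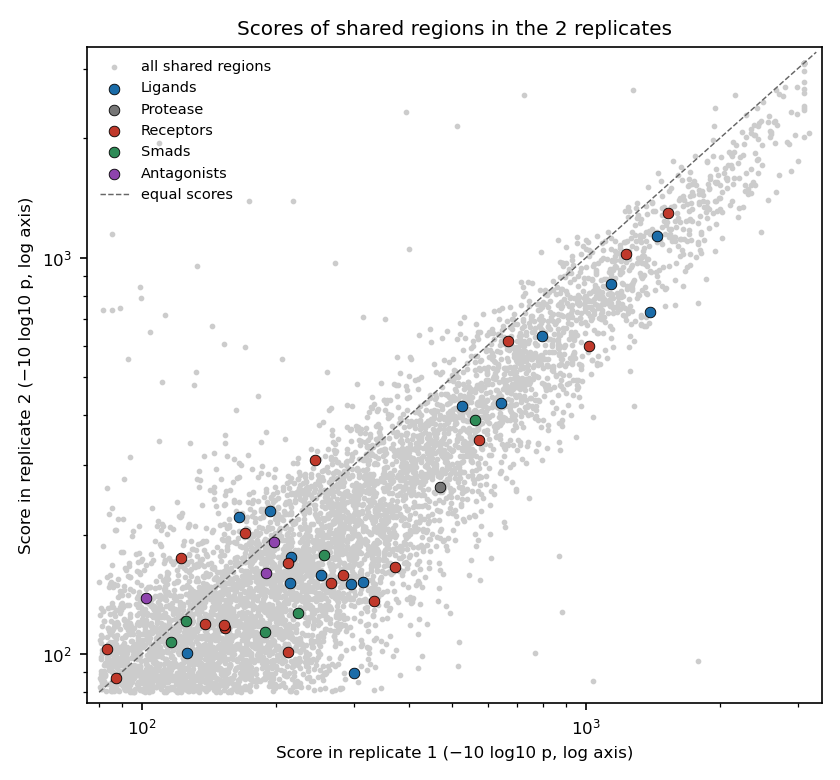
Score in replicate 1 against score in replicate 2 on log axes for all shared regions (grey) and for the 44 regions near the pathway genes, coloured by role, with a dashed line at equal scores. Most coloured points lie below the line, 37 of 44 (84.1%) with the higher score in replicate 1, against 80.2% of all shared regions. The 3 with both scores over 1000 belong to Tgfbr3, Bmp8b and Tgfbr2.

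Near these genes, 44 of 64 replicate 1 peaks (68.8%) and 44 of 49 replicate 2 peaks (89.8%) had a partner in the other list, against 64.9% and 90.6% of the whole lists. The peaks without a partner had low scores, with a median of 108 in replicate 1 and 102 in replicate 2, and 19 of the 25 scored under 120. A gene without a shared region is therefore not shown to be unbound, since its sites may lie below the threshold in 1 or both replicates or beyond 100 kb.

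Windows of 400 bp around the regions were searched on both strands for the ERE, allowing at most 1 mismatch, and for 4 other consensus sequences without mismatch. An ERE-like sequence was found in 18 of 44 windows (40.9%, exact 95% interval 26.3% to 56.8%), against 31.1% of all shared regions. In windows 5 kb to the side, it was present in 1.10% beside all shared regions and in 0 of 81 beside the 44. The interval includes the share of all shared regions. EREs without mismatch were found in 3 windows (6.82%), against 6.60% of all shared regions. By role, the ERE-like sequence was present in 7 of 15 ligand regions, 6 of 14 regions of signalling receptors, 0 of 5 Tgfbr3 regions, 3 of 6 Smad regions, 1 of 3 antagonist regions and the Bmp1 region. It was present in 10 of the 17 regions nearest to a pathway gene and in 8 of the other 27.

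The median lower score was 158 with the ERE-like sequence and 167 without it, whereas over all shared regions it was 247 with it and 150 without. The order of these medians was thus the opposite one among the pathway regions. When both peaks had to reach 1e-20, the ERE-like sequence was present in 7 of 14 pathway regions (50%). The share of all shared regions at that threshold is not given here. TGACTCA or TGAGTCA, the AP1 consensus, was present in 18.2% of the windows against 16.7% of all shared regions. CAAGGTCA, the SF1 consensus, which contains the GGTCA half-site, was present in 9.09% against 9.34%. For GTCACG, the PAX2 consensus, the shares were 4.55% and 9.16%, and for TGTTTAC or TATTTAC, the FOXA1 consensus, 9.09% and 14.03%. Beside all shared regions (windows 5 kb to the side), AP1 stood at 7.09%, SF1 at 3.02%, PAX2 at 3.93% and FOXA1 at 10.7%. Beside the 44 regions the shares were 3.70%, 1.23%, 7.41% and 8.64%, in the same order. For PAX2 and FOXA1, the share of the 44 regions thus lay between these shares of windows to the side. None of the 5 was present in 16 of the 44 windows (36.4%), against 41.02% of all shared regions, and each share of all regions lay within the interval for the 44.

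**Figure D5:**
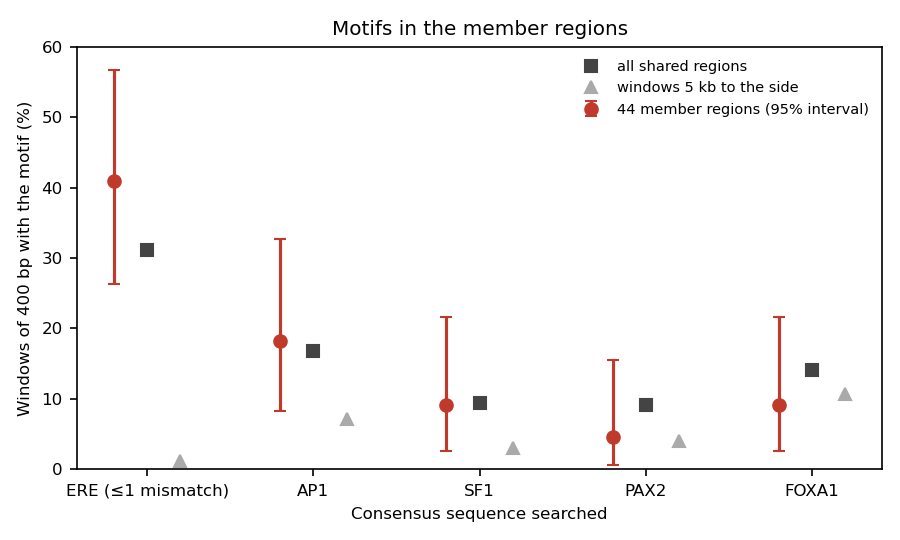
Percent of 400 bp windows that hold each consensus sequence, for the 44 regions near the pathway genes (red, bars are exact 95% intervals) and all shared regions (black squares). Grey triangles are windows 5 kb to the side of all shared regions. The ERE-like sequence stands at 40.9% in the 44 regions, 31.1% in all shared regions and 1.10% beside all shared regions. The black square lies within the red bar for all 5 sequences.

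A list of 68 other genes of the pathway was counted in the same way, and 35 of them (51.5%) had a shared region, against 38.1% of all protein-coding genes. Genes for the latency and activation of TGFβ, which is secreted in a latent complex, stood highest with 9 of 10, and Thbs1 was the exception. The territories of 4 of these genes (Ltbp1, Ltbp2, Itgav and Itgb6), from 249 to 579 kb, fall in the longest class, where 48.6% of protein-coding genes had a shared region. Of the other antagonists 8 of 13 had a shared region, of the intracellular regulators 6 of 12, of the receptors and coreceptors 3 of 7, of the target genes 3 of 7 and of the ligands 6 of 19. Ltbp1, which encodes a latent TGFβ binding protein, had 4 shared regions. One of them, in its intron at -67952 bp from the nearest Ltbp1 TSS, scored 3181 in replicate 1 and 2059 in replicate 2, above all 44 regions of the 37 genes, and its nearest TSS was that of Gm6276. Itgb6, for an integrin subunit that activates latent TGFβ, had 4 regions, all in its introns and all nearest to it, with scores of 86.0 to 415 in replicate 1 and 147 to 288 in replicate 2. Itgb8, for another such integrin subunit, had the only proximal region of these genes, at -994 bp with scores of 85.5 and 104.

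Pmepa1, an inhibitor of TGFβ signalling, had 7 shared regions, more than its 6 replicate 2 peaks. Those at 81957 and 82649 bp have the same replicate 2 score of 514. Of the 7 regions, 1 was nearest to Pmepa1. That region, in its intron at 11603 bp, held an ERE without mismatch and scored 965 and 796. Ski, a corepressor of Smads, had 6 shared regions, and the 1 nearest to it, in its intron at 4685 bp, scored 91.2 and 89.98. Fstl3, for a relative of follistatin, had 4, none nearest to it, the highest with scores of 1983 and 1619 in an exon of BC005764. Gdf15, a distant ligand of the family, had 11 shared regions, the most of the 68, and all were closer to Pgpep1, Isyna1 or Ell. The last 2 genes show again that a region within 100 kb often lay closer to another gene.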

How the data were processed

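The peak lists were those the authors deposited for each ERα ChIP-seq replicate. BWA was used by the authors for alignment to mm9, and MACS (version not given in the sources used here) for peak calling, with a p-value cutoff of 1e-08. There is 1 list per replicate, and the names of the deposited lists pair each replicate with the input, which was taken as the control of the peak calling. The deposited score of a peak is -log10(p) multiplied by 10. Replicates were not pooled, and the input was used in no other step. The lists hold no counts, so depth could not be assessed from them. RNA-seq was not analysed here.

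TSSs and gene bodies were taken from GENCODE version 1 for mouse (Ensembl 65, NCBIM37), which differs from the RefSeq genes used in the study. Midpoints of shared regions (overlap of at least 1 bp) were assigned to every gene with a TSS within 100 kb and to the nearest TSS of any gene. Motifs were searched in 400 bp windows on both strands. Paralogous windows were aligned locally with a match of 1, a mismatch of -1 and gaps of -3 to open and -0.5 to extend.

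The 37 genes and the 68 other pathway genes were chosen with earlier results of these data known, and the classes of territory length (203 and 233 kb, the median and upper quartile of the 37 genes), as well as the limit of 230 kb, were set after the data were seen. Genes described with every region were the 12 with the most shared regions (ties ordered by the highest lower score, which placed Smad3, also with 2, after them), those with a proximal region, those with an ERE without mismatch and those with 1 of the 5 highest regions by lower score. Of the other pathway genes, the 6 with the most shared regions and those with a proximal region were described. The other genes are named outside this rule. Sequences of 41 bases are those with an ERE without mismatch, then those of the highest regions, 12 in all. Shares are descriptions beside all protein-coding genes or all shared regions, with no test, and the 95% intervals (exact, Clopper-Pearson) reflect counting error alone. Both replicates are pools, so the spread between animals is not known.

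Overlap, distance, nearest TSS and motif steps were tested on simulated data. The alternatives tried were p-values of 1e-10 and 1e-20, other overlaps, TSS sets, distances, mismatches and windows, and each replicate alone. Python 3.11.15, numpy 2.4.6, scipy 1.17.1, pysam 0.24.0 and Biopython 1.88 were used.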

Additional observations from a re-analysis of the deposited data

How the results depend on the processing

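The distance and the score threshold decided most counts. At a p-value of 1e-20, 11 of the 37 genes had a shared region (29.7%, against 20.9% of protein-coding genes), with 14 regions, a median of 0 per gene and 4 genes nearest to a region. Within 50 kb there were 23 regions, 14 genes (37.8%, against 24.5%) and a median of 0. Within 25 kb there were 11 regions, 9 genes (24.3%, against 14.9%) and a median of 0, and the ERE share was 63.6%, or 7 of 11 regions. It was 6.82% with no mismatch and 75% with at most 2 mismatches. With each replicate alone, the number of genes was 25 in both lists, regions numbered 49 to 64, genes nearest to a peak 16 to 18, the ERE share ranged from 34.4% to 40.8% and the median was 1. In each of these settings for genes, the share of the 37 genes was above that of protein-coding genes. Of the 12 genes with the most regions, which leave out Smad3 at a tie of 2, 11 had fewer at 1e-20, and Smad6, Bmp7, Bmpr1a and Grem1 then had 0. When only the outermost 5′ TSS of a gene was used, Tgfbr3 had 1 region instead of 5 and Tgfb2 1 instead of 2.

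Both replicates are pools of glands, and no vehicle ChIP library is among the samples. The peak lists therefore measure neither the spread between animals nor an effect of estradiol on binding. The study compared vehicle and estradiol by quantitative PCR of ERα ChIP DNA at Greb1, Pgr, Fos, Gata3 and Areg. It also mentions such a PCR for binding near Bmp8a, without showing the data. No paired analysis was possible because there is only 1 group of ChIP samples. The peak lists show no depth, so a gene without a peak is not shown to be unbound.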
